A study of Mus musculus with 12 samples.

Results

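Notch signalling was described by 9 genes chosen by name: the receptors Notch1, Notch2 and Notch3, the ligands Dll1, Dll4 and Jag1, and the target genes Hes1, Hey1 and Heyl. All 9 were found among the 54532 genes of the table, and all 9 were among the 16393 genes with enough reads to be tested. RNA was sequenced from 12 libraries of whole tibialis anterior muscle, a muscle of the lower leg, collected 5 days after glycerol was injected. Glycerol destroys muscle fibres, and repair of the muscle is then accompanied by the appearance of fat cells. The 6 knockout libraries carry the genotype label FAP no ppary, for a conditional deletion of Pparg in fibro-adipogenic progenitors (FAPs), the mesenchymal cells of muscle that can turn into adipocytes. The 6 control libraries carry the genotype label Wildtype. Every library has 129svlmJ as its strain entry, and every muscle received glycerol, so no uninjured muscle enters any comparison. The sources used here do not give the promoter that drove the deletion, its timing, the alleles carried by the controls or the age of the mice. They also do not say whether each library is a different animal; p-values therefore measure only the spread between these samples, which may be partly technical.

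Notch receptors sit on the cell surface and are activated by Delta-like and Jagged ligands on a neighbouring cell. A cleavage then frees the intracellular part of the receptor, which enters the nucleus, joins the DNA-binding protein RBPJ and switches on repressor genes of the Hes and Hey families. In muscle the pathway is known for keeping satellite cells, the muscle stem cells, from differentiating, and in vessels it guides endothelial sprouting and the maturation of mural cells, the pericytes and smooth muscle cells of the vessel wall. The comparison asks whether the transcripts of this pathway change during repair once Pparg is deleted in FAPs.

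All 9 are protein-coding genes, placed here by the coordinates of the deposited table (GRCm38). The receptors are Notch1 (ENSMUSG00000026923) at chr2:26457903-26516663 on the minus strand, Notch2 (ENSMUSG00000027878) at chr3:98013527-98150361 on the plus strand and Notch3 (ENSMUSG00000038146) at chr17:32120820-32166880 on the minus strand. The ligands are Dll1 (ENSMUSG00000014773) at chr17:15367354-15376872 on the minus strand, Dll4 (ENSMUSG00000027314) at chr2:119325784-119335962 on the plus strand and Jag1 (ENSMUSG00000027276) at chr2:137081456-137116644 on the minus strand. The targets are Hes1 (ENSMUSG00000022528) at chr16:30064384-30067796 on the plus strand, Hey1 (ENSMUSG00000040289) at chr3:8663359-8667256 on the minus strand and Heyl (ENSMUSG00000032744) at chr4:123233556-123249875 on the plus strand. The table gives 1 count per gene and library, so isoforms were not told apart.

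No member of the 9 passed an adjusted p of 0.05. Jag1 had a lower mean in knockout muscle and an unadjusted p of 0.0338, and 7 of the other 8 genes had a mean above that of controls. Over the whole table, 131 genes passed (0.799% of those tested), 8 of them higher in knockout muscle (0.0488%) and 123 lower (0.75%), by edgeR's quasi-likelihood test with Benjamini-Hochberg adjustment. At an unadjusted p under 0.05 stood 1 of the 9 Notch genes, against 1552 of all genes tested (9.47%). For none of the 9 did the values of the 6 knockout libraries lie wholly above or below those of the 6 control libraries, which was so for 234 of all genes tested (1.43%). The median log2 fold change, knockout minus control, was 0.16 over the 9 genes and -0.0013 over all tested genes. Fold changes throughout are log2 values from that fit, and levels are counts scaled to library size (CPM) on library sizes scaled by TMM. That scaling sets a factor for each library on the assumption that most genes do not change.

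Library totals were between 15716056 and 29790720 counts, and mitochondrially encoded protein genes made up 2.66% to 10.8% of them. Pparg, the deleted gene, averaged 26.4 ± 10.3 CPM in knockout libraries and 57.4 ± 8.27 CPM in control libraries (SD, n = 6 each), with all 6 knockout libraries below every control and a log2 fold change of -1.12 (adjusted p = 0.0299, edgeR). That call was lost in 10 of the 24 alternative settings, 8 of which left out a single library. Some libraries of a group resembled each other in pairs. At 36 genes with 2 separate levels, 5 pairs of libraries shared 80.6% to 100% of their states, while all other pairs shared 36.1% to 75%. The pairs were knockout replicates 1 and 2, 3 and 4, and 5 and 6, and control replicates 2 and 3, and 4 and 5, which leaves 3 knockout sets and 4 control sets; whether a set is 1 animal, a litter or a batch was not tested. With counts summed over these sets, no gene in the table passed (edgeR; 1127 of 18382 tested had an unadjusted p under 0.05), and the adjusted p of Pparg was 0.274.

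Among the receptors, Notch2, which is made by many cell types, was counted most, with 1496 to 3395 reads per library. It stood at 87.1, 97.8 and 112 CPM (lowest, median and highest) in knockout libraries and at 84.5, 93.0 and 98.9 CPM in control libraries. Knockout replicates 3 and 4 were above all controls, and the other 4 lay within the control range, so the groups overlapped. The log2 fold change was 0.08 (SE 0.07), with a 95% interval from -0.06 to 0.23, the narrowest of the 9 genes.

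Notch3, the receptor of mural cells that satellite cells also make, ran from 45.1 through a median of 67.6 to 83.9 CPM in knockout libraries, against 38.1, 54.0 and 64.4 CPM in control libraries. Knockout replicates 3, 4, 5 and 6 were above every control, while knockout replicates 1 and 2, which share a set, were below the control median. By set, Notch3 averaged 47.2, 76.1 and 71.2 CPM in the knockout sets and 57.6, 45.7, 58.2 and 54.6 CPM in the control sets. The log2 fold change was 0.28 (SE 0.15, 95% interval -0.05 to 0.62), and the adjusted p was 0.633 (edgeR). Notch1, the receptor best known from endothelium and satellite cells, had 20.6, 25.9 and 31.8 CPM as its lowest, median and highest knockout values and 18.0, 21.9 and 27.6 CPM as its control values. Only knockout replicate 6 was above every control, and the log2 fold change of Notch1 was 0.16 (SE 0.12, 95% interval -0.10 to 0.43).

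**Figure D1:**
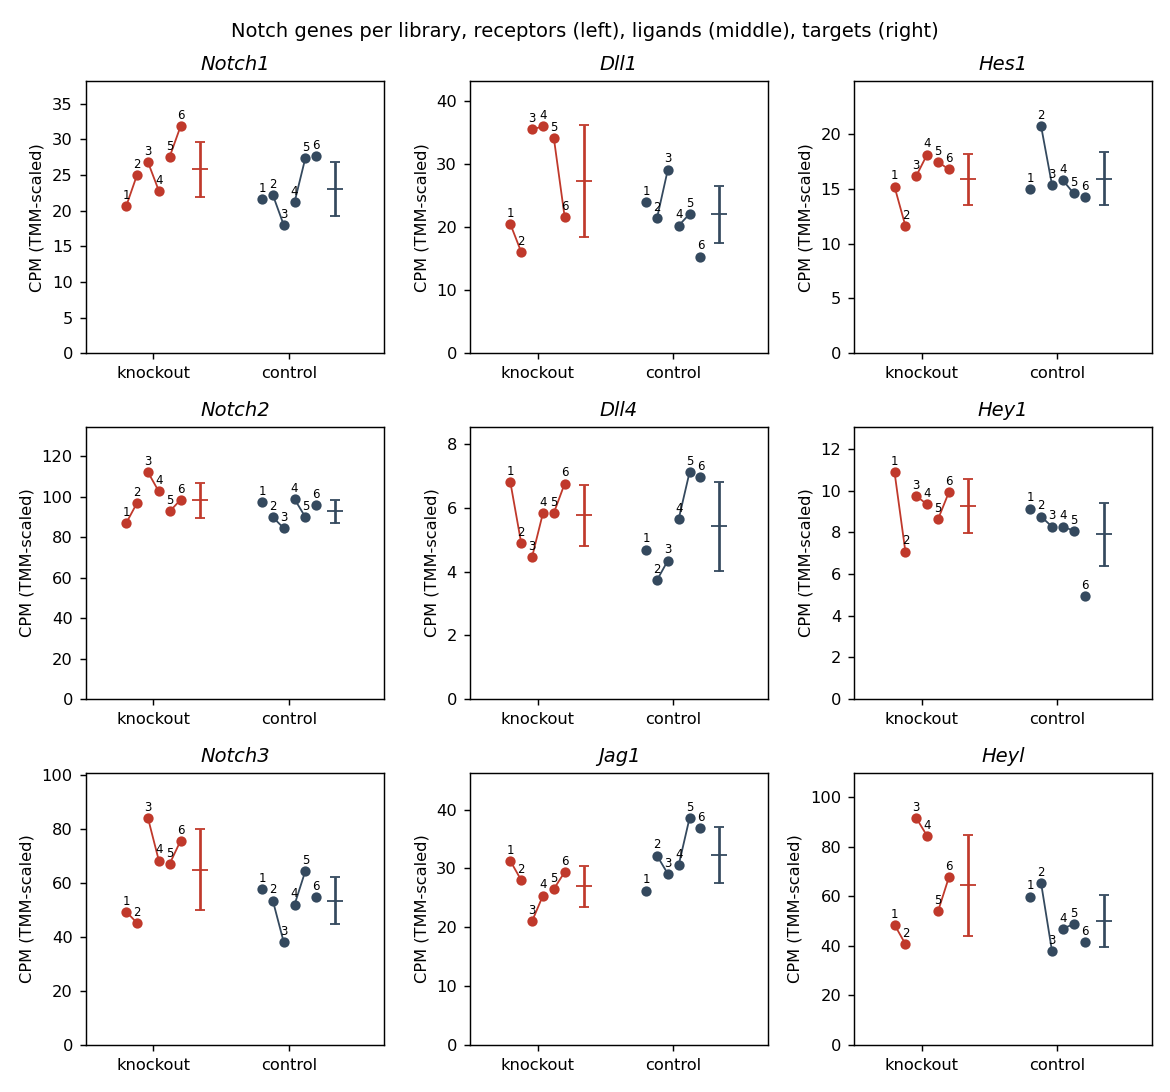
Level of each Notch gene in each of the 12 libraries, in CPM on TMM-scaled library sizes, knockout left and control right in each panel. Numbers are replicates, thin lines join libraries of a set, and the bar beside each group is its mean ± SD (n = 6). In every panel the groups overlap; knockout replicates 3 and 4 are at the top of Heyl, with 91.6 and 84.4 CPM, and of Dll1, with 35.5 and 36.0 CPM.

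Among the ligands, Dll1, the Delta-like ligand that muscle progenitors and their neighbours use to hold progenitors undifferentiated, spread most in knockout muscle. Its lowest, median and highest values were 16.05, 27.9 and 36.0 CPM in knockout libraries and 15.3, 21.7 and 29.1 CPM in control libraries. Knockout replicates 3, 4 and 5 were above every control at 34.2 to 36.0 CPM, and the other 3 lay inside the control range. The log2 fold change was 0.31 (SE 0.21, 95% interval -0.14 to 0.76; adjusted p = 0.769, edgeR). Of the exon bases of Dll1, 20.5% are shared with the opposite-strand gene A930024N18Rik, whose 276 reads over all libraries compare with 6308 of Dll1. The sources used here do not say whether counting kept the strands apart.

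Jag1, a Jagged ligand of endothelium and other cells that signals to mural cells, was the 1 member whose 95% interval lay below 0. It stood at 21.1, 27.3 and 31.3 CPM (lowest, median and highest) in knockout libraries and at 26.2, 31.4 and 38.6 CPM in control libraries. Knockout replicates 3 and 4 were below every control and control replicates 2, 5 and 6 were above every knockout, with the rest mixed. The log2 fold change was -0.26 (SE 0.11, 95% interval -0.50 to -0.02), and the adjusted p was 0.450 (edgeR). Its sign was the same in all 24 alternative settings, with values between -0.31 and -0.19. Dll4, the ligand of endothelial tip cells and arteries, had the fewest reads, 81 to 163 reads per library. Its lowest, median and highest values were 4.46, 5.84 and 6.80 CPM in knockout libraries and 3.73, 5.17 and 7.11 CPM in control libraries, the knockout range lying inside that of the controls. Its log2 fold change of 0.09 (SE 0.18) had an interval from -0.29 to 0.47.

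The Dll1 and Jag1 levels ran against each other between libraries. The log2 ratio of Dll1 to Jag1, taken from levels per length (FPKM, the deposited values that divide each count by gene length and library depth), was 0.43 ± 0.66 in knockout libraries and -0.10 ± 0.46 in control libraries (SD, n = 6 each). It was above every control in 3 knockout libraries and was not tested. Within the summed FPKM of the ligands, Dll1 made up 50.4% ± 10.9 in knockout libraries and 42.9% ± 8.0 in control libraries, and Jag1 37.6% ± 8.76 and 45.5% ± 5.82 (SD, n = 6 each). The difference between the mean shares was smaller than the SD of the knockout group for both ligands.

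The target Heyl, a Hey-family repressor that mouse satellite cells need, together with Hey1, to stay undifferentiated, had the largest estimate of the 9 genes. Its lowest, median and highest values were 40.7, 60.8 and 91.6 CPM in knockout libraries and 37.9, 47.9 and 65.2 CPM in control libraries. Knockout replicates 3, 4 and 6 were above every control, and the other 3 lay inside the control range. The knockout sets averaged 44.6, 88.0 and 60.8 CPM and the control sets 59.9, 51.6, 47.9 and 41.6 CPM, and the set of knockout replicates 3 and 4 was the highest of the 7. The log2 fold change was 0.37 (SE 0.20, 95% interval -0.07 to 0.80), and the adjusted p was 0.635 (edgeR).

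Hey1, its close relative, stood at 7.07, 9.54 and 10.9 CPM (lowest, median and highest) in knockout libraries and at 4.92, 8.27 and 9.13 CPM in control libraries. Knockout replicates 1, 3, 4 and 6 were above every control, and control replicate 6 was far below the rest. The log2 fold change of Hey1 was 0.23 (SE 0.15, 95% interval -0.09 to 0.55), and 0.13 without control replicate 6. Hes1, the Hes-family repressor that Notch induces in many tissues, was level between the groups. Its values ran from 11.6 through a median of 16.5 to 18.1 CPM in knockout libraries, against 14.2, 15.1 and 20.7 CPM in control libraries. Both groups averaged 15.9 CPM, and the log2 fold change of -0.0042 (SE 0.12) had an interval from -0.26 to 0.25 and took the other sign in 12 of 24 alternative settings.

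**Figure D2:**
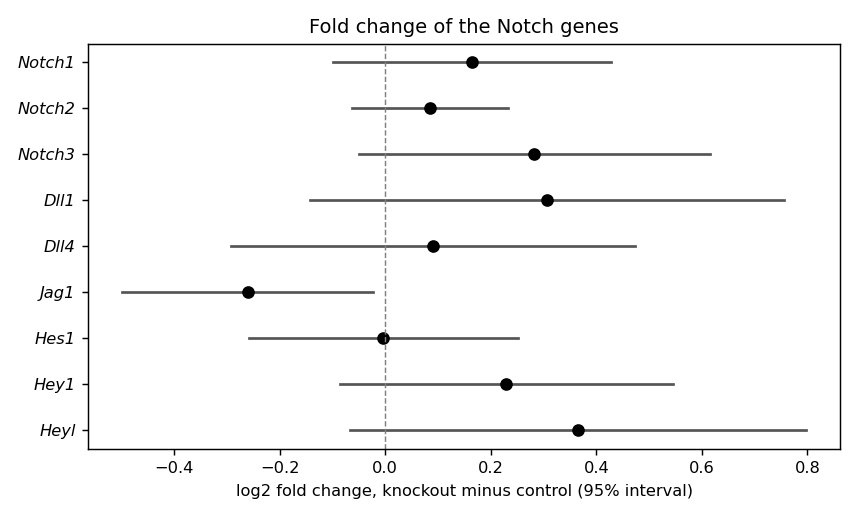
Log2 fold change, knockout minus control, of the 9 Notch genes (points) with 95% intervals (lines) from the edgeR fit of 6 knockout and 6 control libraries. The interval of Jag1 ends at -0.02, and the intervals of the other 8 genes span 0. The smallest adjusted p was 0.450, that of Jag1 (edgeR).

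The promoter windows of Notch3, Dll1 and Jag1 are shown because their levels had the most distinct patterns of the receptors and ligands: Notch3 was higher in 4 knockout libraries than in any control, and Dll1 and Jag1 ran opposite ways. Each holds 250 bases before and 50 after a RefSeq start in GRCm38.p6, on the minus strand, written 5′ to 3′: Notch3 at chr17:32166841-32167140, Dll1 at chr17:15376883-15377182 (1 of 2 windows of this gene) and Jag1 at chr2:137116471-137116770. Capitals mark CACGNG and CACNAG, the E-box-like and N-box letters that Hes and Hey proteins are known to bind, on either strand.
Notch3: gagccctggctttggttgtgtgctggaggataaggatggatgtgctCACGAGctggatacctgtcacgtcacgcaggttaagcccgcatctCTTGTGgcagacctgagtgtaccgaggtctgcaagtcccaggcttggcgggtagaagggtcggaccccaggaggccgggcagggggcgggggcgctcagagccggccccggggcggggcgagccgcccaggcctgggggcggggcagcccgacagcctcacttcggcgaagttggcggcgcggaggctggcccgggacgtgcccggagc
Dll1: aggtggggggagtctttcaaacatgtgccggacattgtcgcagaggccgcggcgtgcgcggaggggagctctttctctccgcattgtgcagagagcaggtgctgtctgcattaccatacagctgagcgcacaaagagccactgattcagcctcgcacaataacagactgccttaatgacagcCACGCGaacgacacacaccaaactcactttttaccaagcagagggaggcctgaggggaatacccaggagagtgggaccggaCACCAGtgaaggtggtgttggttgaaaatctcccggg
Jag1: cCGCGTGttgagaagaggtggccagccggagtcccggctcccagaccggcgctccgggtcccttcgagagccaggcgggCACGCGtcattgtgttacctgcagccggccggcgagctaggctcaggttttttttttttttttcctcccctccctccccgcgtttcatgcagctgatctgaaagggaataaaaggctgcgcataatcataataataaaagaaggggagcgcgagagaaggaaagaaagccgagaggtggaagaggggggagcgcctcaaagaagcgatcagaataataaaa

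RefSeq windows were found for 6 of the 9 genes, 7 windows in all; Hes1, Hey1 and Heyl were the genes not matched. The core letters of the RBPJ site, TGGGAA, and the palindromic E-box CACGTG were in none of the 7 windows on either strand, and are in 25.6% and 7.15% of all 32851 windows of this length. CACGNG is in 27.5% of all windows and CACNAG in 42.5%. In Notch3 a CACGAG at -204, which fits both motifs, and a CTTGTG at -159 were found. The Dll1 window shown holds CACGCG at -68 and CACCAG at 14, and the other holds CACGGG at -105. Jag1 holds CGCGTG at -249 and CACGCG at -171. These matches describe letters in a short window and were not tested against expression.

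Per length, the 9 genes fell into a higher group of 6 and a lower group of 3. In knockout libraries the FPKM levels were, from the highest, 12.5 ± 3.94 for Heyl, 9.07 ± 0.788 for Notch2, 8.01 ± 1.85 for Notch3, 7.74 ± 1.12 for Hes1, 6.42 ± 2.07 for Dll1 and 4.59 ± 0.616 for Jag1, then 2.82 ± 0.401 for Hey1, 1.80 ± 0.275 for Notch1 and 1.49 ± 0.248 for Dll4 (SD, n = 6). In control libraries the FPKM levels were 9.67 ± 2.02 for Heyl, 8.50 ± 0.506 for Notch2, 7.72 ± 1.16 for Hes1, 6.55 ± 1.07 for Notch3, 5.47 ± 0.812 for Jag1 and 5.15 ± 1.05 for Dll1, then 2.39 ± 0.451 for Hey1, 1.597 ± 0.266 for Notch1 and 1.39 ± 0.362 for Dll4 (SD, n = 6). Between neighbours in this order, the libraries overlapped everywhere except above Hey1: Jag1 in knockout muscle and Dll1 in control muscle had all 6 values above all 6 of Hey1. Hes1 and Notch3, and Dll1 and Jag1, traded places between the groups, inside the overlap of their values. Among all tested genes, 73.4% had a lower mean FPKM than Heyl, 67.9% than Notch2 and 26.8% than Dll4.

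**Figure D3:**
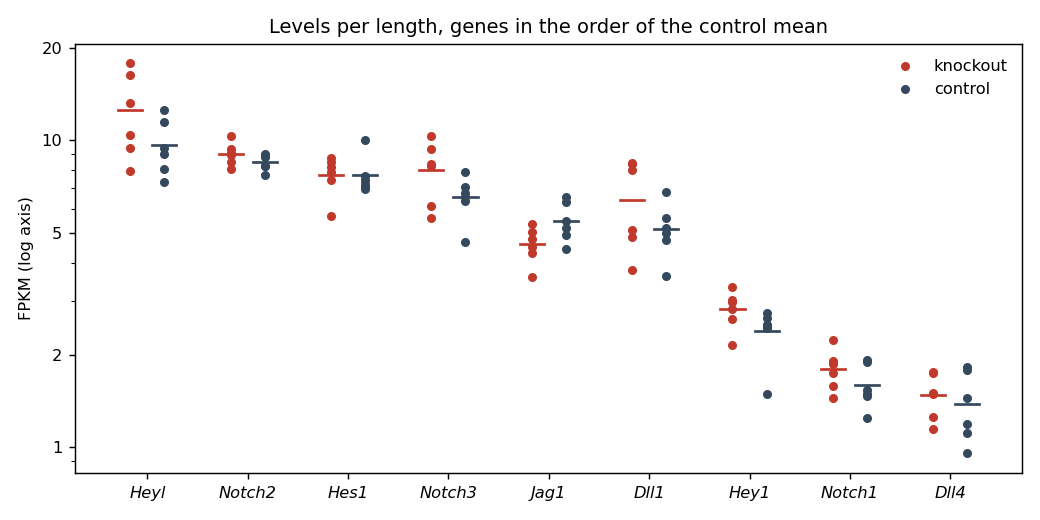
FPKM of the 9 Notch genes on a log axis, ordered by the control mean. Points are single libraries, knockout left of control at each gene. Heyl averages 12.5 FPKM in knockout and 9.67 in control libraries, and Dll4 1.49 and 1.39; the step between the 6 higher genes and Hey1 is the only one at which neighbours do not overlap in both groups.

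Shares within the receptors and within the targets were taken in the same way as for the ligands. Notch2 made up 48.4% ± 4.18 of the summed FPKM of the receptors in knockout libraries and 51.3% ± 3.67 in control libraries, Notch3 42.0% ± 4.47 and 39.1% ± 3.21, and Notch1 9.58% ± 1.181 and 9.56% ± 0.994 (SD, n = 6 each). Heyl made up 53.4% ± 5.99 of the summed FPKM of the targets in knockout libraries and 48.6% ± 3.71 in control libraries, Hes1 34.1% ± 4.23 and 39.2% ± 3.43, and Hey1 12.5% ± 2.34 and 12.1% ± 1.98 (SD, n = 6 each). The Hes1 share was below every control in 2 knockout libraries, and the Heyl share above every control in 3.

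The rest of the pathway gave no call either. Of 65 further genes of Notch signalling, 56 were tested and none passed in either direction in the edgeR fit. In that fit 5 of the 56 had an unadjusted p under 0.05, against 9.47% of all tested genes. Of the 56, 33 had a positive and 23 a negative log2 fold change, with a median of 0.03. Over all tested genes, 49.5% had a positive value. Jag2, the other Jagged ligand, averaged 51.9 ± 13.6 CPM in knockout libraries and 39.7 ± 5.98 CPM in control libraries (SD, n = 6 each), a log2 fold change of 0.38 (adjusted p = 0.440, edgeR) opposite in sign to that of Jag1. Dlk2, an atypical ligand, was next by p among the 5 further receptors and ligands tested, with a log2 fold change of 0.17 (adjusted p = 0.923). The log2 FPKM ratio of Jag2 to Jag1 was 0.66 ± 0.56 in knockout libraries and 0.04 ± 0.33 in control libraries (SD, n = 6 each), with 3 knockout libraries above every control.

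Of the further genes listed as possible targets, all 4 tested had positive log2 fold changes. Hes6, which opposes Hes1 in myogenic and neural cells, had 0.28 and Bhlhe40 0.26 (adjusted p = 0.592 and 0.616, edgeR). Whether Notch drives these genes in this muscle was not tested. Hes2, Hes3, Hes5, Hes7, Hey2 and Helt had too few reads to be tested, at most 19 in any library. Of 15 genes of receptor processing and glycosylation, 5 had positive and 10 negative log2 fold changes; Psen2, a catalytic subunit of the gamma-secretase that frees the intracellular receptor, had -0.20 (adjusted p = 0.383, edgeR) and Furin, the protease that first cuts the receptor precursor, 0.12 (adjusted p = 0.774). Of 14 genes of ligand endocytosis and receptor turnover, the ubiquitin ligase Dtx2 came closest to the threshold. Dtx2 averaged 22.9 ± 2.47 CPM in knockout libraries and 28.0 ± 2.33 CPM in control libraries (SD, n = 6 each), with 5 knockout libraries below every control, a log2 fold change of -0.29 and an adjusted p of 0.149 (edgeR). It passed in 2 alternative settings, with limma-voom (adjusted p = 0.0359) and without knockout replicate 2 (adjusted p = 0.0382, edgeR). Neurl1a, a ligase for ligands, had a log2 fold change of 0.29 (adjusted p = 0.349). Of 18 nuclear cofactors, Cir1, a corepressor that binds RBPJ, had -0.25 and the acetyltransferase Kat2b -0.20 (adjusted p = 0.320 and 0.549, edgeR), while Rbpj itself stood at 89.7 ± 26.9 CPM in knockout and 81.7 ± 20.5 CPM in control libraries (SD, n = 6 each).

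A separate list of 7 genes held Pax7 and genes described as Notch targets of satellite cells, mostly collagen V and VI genes. It also had no member past the threshold in the edgeR fit, with 3 at an unadjusted p under 0.05, against 9.47% of all tested genes. The list had 1 positive and 6 negative log2 fold changes. Its median of -0.46 is the value of Calcr, which averaged only 0.48 CPM in knockout and 0.65 CPM in control libraries. Col5a1 had -0.06 and Col5a2 -0.17 (adjusted p = 0.946 and 0.706, edgeR). Col6a2 averaged 627 ± 162 CPM in knockout libraries and 903 ± 57.7 CPM in control libraries (SD, n = 6 each), with 5 knockout libraries below every control, a log2 fold change of -0.53 and an adjusted p of 0.138 (edgeR). Col5a3 had -0.56 and Col6a1 -0.48 (adjusted p = 0.139 and 0.206). Col6a2 passed in 4 alternative settings, with adjusted p of 0.0334 in DESeq2 and 0.0201 in limma-voom, and 0.0485 with the replicate block and 0.0315 without knockout replicate 1 in edgeR. Pax7, the transcription factor of satellite cells, was the 1 gene of this list with a positive value, 0.31 (19.1 ± 5.62 CPM in knockout and 15.4 ± 3.48 CPM in control libraries; SD, n = 6 each). FAPs are a main source of these collagens in muscle, and 11 of 12 FAP markers had negative log2 fold changes (median -0.23), with Col15a1 at -0.52 and Gsn at -0.56 past the threshold (adjusted p = 0.0208 and 0.0300, edgeR). The summed level of the FAP markers was 7303 to 12169 CPM in knockout libraries and 9456 to 12931 CPM in control libraries. It mainly reads the collagen genes Col1a1 (means 3884 CPM in knockout and 3937 CPM in control libraries) and Col3a1 (3815 and 5176 CPM). The part of FAPs in the collagen V and VI values was not tested.

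Marker lists of the cell types in muscle were read beside the members. For the counts of signs below, 49.5% of all tested genes had a positive log2 fold change. In whole muscle, fewer cells of a type and less RNA per cell cannot be told apart. Of 12 satellite cell markers, 10 had positive log2 fold changes (median 0.33) and none passed in edgeR; Cdh15 and Myod1, the myogenic factor, had 0.59 and 0.56 (adjusted p = 0.128 and 0.160). The summed level of the 12 markers was 2531 to 4624 CPM in knockout libraries and 2463 to 3789 CPM in control libraries, with no marker at 0 in all libraries. Des alone averaged 2961 ± 757 CPM in knockout and 2667 ± 565 CPM in control libraries (SD, n = 6 each), so this sum mainly reads Des. The mean log2 CPM of the list was 5.56 ± 0.35 in knockout libraries and 5.29 ± 0.22 in control libraries (SD, n = 6 each). Knockout replicates 3, 4, 5 and 6 were above every control in this mean, the same 4 libraries as for Notch3. All 11 markers of differentiating myocytes had positive values (median 0.29), led by Myog at 0.42 and Tnnt2 at 0.34 (adjusted p = 0.296 and 0.340, edgeR). Of 12 endothelial markers 11 had negative values (median -0.08), led by Tek at -0.28 and Emcn at -0.17, and 7 of 12 mural markers (median -0.10), led by Mcam at -0.22 and Kcnj8 at -0.48 (adjusted p from 0.380 to 0.816, edgeR). In contrast, 8 of 10 markers of arterial and tip endothelium had positive values (median 0.22), with Cxcr4 at 0.33 and Unc5b at 0.32 (adjusted p = 0.131 and 0.504). All 12 adipocyte markers had negative values (median -1.69), 5 of them past the threshold: Fabp4 (-1.63), Lpl (-1.22), Adrb3 (-2.35), Aqp7 (-1.45) and Lgals12 (-1.82), with adjusted p from 0.0193 to 0.0332 (edgeR). Of 12 T and NK cell markers 11 had positive values (median 0.82), led by Il2rb at 1.203 and Gzma at 1.26 (adjusted p = 0.0979 and 0.132). The lists of macrophages (led by Lyz2 at -0.25 and C1qa at 0.16), Schwann cells (Prx at 0.29 and S100b at -0.39) and mature fibres (Atp2a1 at 0.26 and Acta1 at 0.16) had medians of 0.07, -0.05 and 0.11 and no call. Mature fibre markers summed to 18293 to 61531 CPM in knockout libraries and 21698 to 49202 CPM in control libraries, so fibre transcripts were present in every library.

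Within the groups, the members followed different cell type lists. Each log2 CPM value was set as a deviation from its group mean and Pearson's r was taken over the 12 libraries; since libraries share sets, these r are descriptions without a test. Dll1 followed the satellite cell list with r = 0.90 (Spearman's rho 0.90), 0.94 among knockout and 0.79 among control libraries, 0.99 over the 7 sets, and 0.88 without the 2 libraries farthest from the median. Dll1 also followed the differentiating myocyte list, with r = 0.83, 0.95 among knockout and 0.50 among control libraries, and 0.92 over the 7 sets. Dll1 ran against the macrophage list, with r = -0.87. Heyl followed the satellite cell list with r = 0.80 (0.92 among knockout and 0.52 among control libraries) and Myog, the gene that marks the start of differentiation, with r = 0.88 (0.89 in each group). Hes1 also followed Myog, with r = 0.82. Notch3 had r = 0.56 with the satellite cell list, 0.87 among knockout and -0.13 among control libraries. With the mural list Notch3 had r = -0.06, which joins -0.71 among knockout and 0.53 among control libraries.

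**Figure D4:**
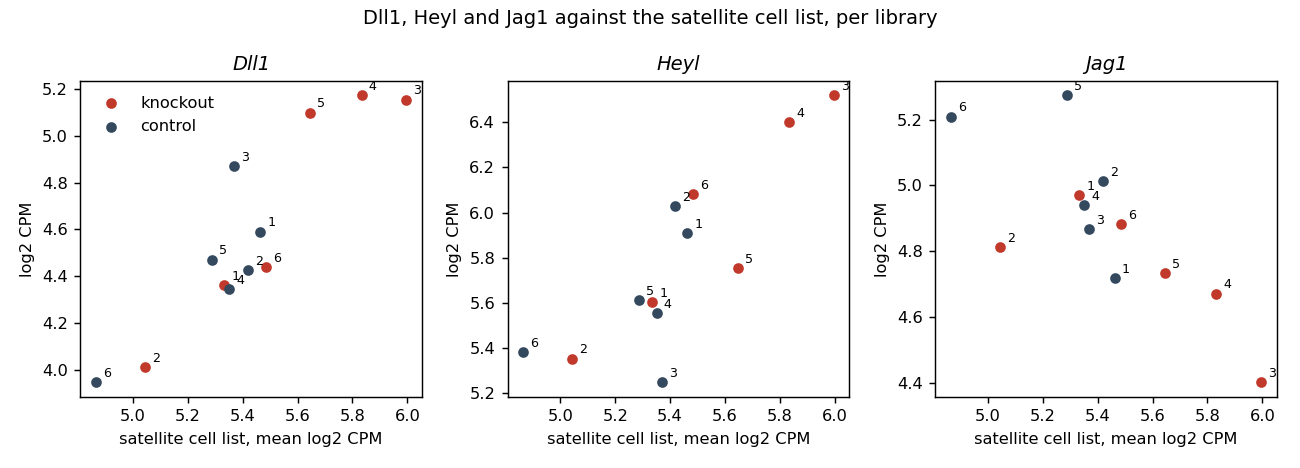
Log2 CPM of Dll1, Heyl and Jag1 (vertical) against the mean log2 CPM of the 12 satellite cell markers (horizontal) in the 12 libraries; numbers are replicates. Dll1 and Heyl are higher where the markers are higher (r = 0.90 and 0.80 after group means are removed), and Jag1 is lower (r = -0.71).

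Jag1 followed the endothelial list, with r = 0.75 (0.82 among knockout and 0.78 among control libraries, 0.55 without the 2 libraries farthest from the median), and ran against the satellite cell list (r = -0.71) and the differentiating myocyte list (r = -0.78). Notch1 followed the arterial and tip endothelium list with r = 0.81. With the endothelial list Notch1 had r = 0.29, 0.04 among knockout and 0.89 among control libraries. With the list of nuclear cofactors Notch1 had r = 0.82. Hey1 followed the satellite cell Notch target list with r = 0.82. With the satellite cell list Hey1 had r = 0.65 but a rho of 0.22, and control replicate 6 was low in both. The means of both lists weight each gene alike and include Calcr, which had 0.051 to 1.05 CPM in control libraries. The part of Calcr in these r was not tested. Among the members, Notch3 and Heyl went together (r = 0.77), as did Dll4 and Jag1 (r = 0.72) and Hes1 and Heyl (r = 0.68), while Dll1 and Jag1 went opposite ways (r = -0.64).

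**Figure D5:**
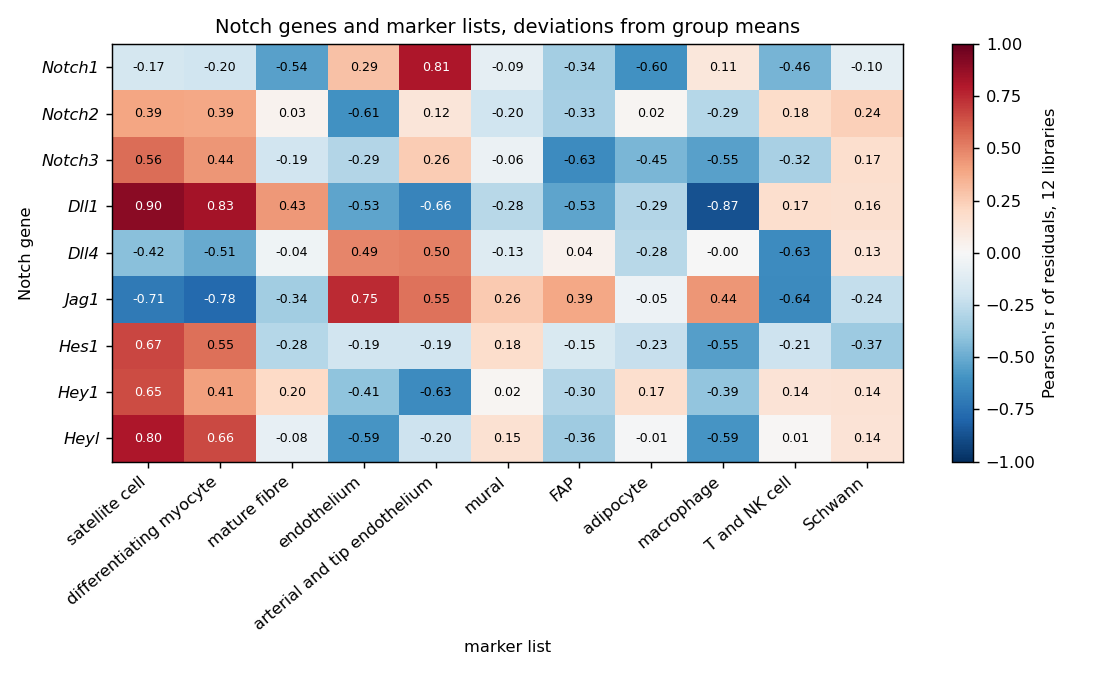
Pearson's r between each Notch gene (rows) and the mean log2 CPM of each marker list (columns) over the 12 libraries, after group means are removed; red is positive and blue negative. The strongest cell is Dll1 with the satellite cell list, 0.90; Jag1 has 0.75 with endothelium and -0.78 with differentiating myocytes.

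Set against the satellite cell list, Dll1 had the same mean in both groups. The log2 CPM of Dll1 minus the mean of that list was -0.85 ± 0.21 in knockout libraries and -0.85 ± 0.19 in control libraries (SD, n = 6 each). The same difference was 0.43 ± 0.18 and 0.43 ± 0.36 for Notch3, and 0.40 ± 0.20 and 0.33 ± 0.26 for Heyl, with the knockout value first. Means were as close against the differentiating myocyte list, where the difference was -4.64 ± 0.23 and -4.64 ± 0.26 for Dll1. There it was -3.36 ± 0.28 and -3.36 ± 0.31 for Notch3, and -3.40 ± 0.36 and -3.46 ± 0.21 for Heyl. Set against the mural list, the difference was 1.83 ± 0.42 and 1.48 ± 0.22 for Notch3, and 1.80 ± 0.51 and 1.38 ± 0.21 for Heyl. For each of these genes, 4 knockout libraries were above every control in the difference to the mural list. For Jag1 set against the endothelial list, the difference was 0.04 ± 0.16 in knockout libraries and 0.20 ± 0.14 in control libraries, with 2 knockout libraries below every control. Against the arterial and tip endothelium list, the difference for Jag1 was 0.73 ± 0.23 and 1.16 ± 0.24, with 4 knockout libraries below every control. For Hey1 set against the satellite cell list, the difference was -2.34 ± 0.31 in knockout libraries and -2.32 ± 0.11 in control libraries (SD, n = 6 each). In it, 3 knockout libraries were above and 2 below every control. Against the mural list, the difference for Hey1 was -0.94 ± 0.22 and -1.27 ± 0.36, with 5 knockout libraries above every control. Whether the cells that make each gene changed in number was not tested.

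The genes most like each member were taken as the 2 with the highest r of deviations from group means among 12519 protein-coding genes over the 12 libraries. For Dll1 they were Smtn, a protein of contractile cells (r = 0.97, rho 0.97), and Rmnd1 (r = 0.96), and for Heyl Dag1, the dystroglycan gene (r = 0.96, rho 0.98), and Spats2l (r = 0.95). For Notch1 they were Prr14l (r = 0.96) and Kdm5c (r = 0.95), for Notch2 Slc5a6 (r = 0.89) and Exoc4 (r = 0.89), and for Notch3 Jmy (r = 0.93) and Thrap3 (r = 0.92). For Jag1 they were Vamp7 (r = 0.94) and Prex2 (r = 0.92), and for Dll4 Fancb (r = 0.91) and Clec1a (r = 0.90). For Hes1 they were Pald1 (r = 0.90) and Lzic (r = 0.90), and for Hey1 Cyb5r4 (r = 0.93) and Hnrnpa3 (r = 0.93). None of these 18 genes passed the threshold between the groups in edgeR. Being the highest of many, these r are upper ends and carry no test.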

How the data were processed

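RNA of 12 muscle samples was sequenced after poly-T selection, per the labels' protocols. Reads went through fastp, HISAT2 2.0.5 and featureCounts on GRCm38, per the submitters' processing notes (whether strand was used is not given in these sources). The authors deposited whole-number read counts per gene, not normalized, and a table of FPKM values made from these counts and the table's gene lengths. Counts were fitted with edgeR 4.0.16 (R 4.3.3): filterByExpr defaults (10 counts, 15 in total), TMM scaling, the robust quasi-likelihood test on knockout against control without covariates, and Benjamini-Hochberg adjustment over 16393 genes at 0.05. SEs and 95% intervals come from the F statistic. Log2 CPM values, computed here from the deposited counts, use a prior count of 2. The fit was tested on simulated data drawn as independent libraries, which cannot speak to libraries that resemble each other in sets. The 9 genes and the lists were chosen with earlier results of these data known. Genes named beside the 9 are those of each list past the threshold or among its 2 with the smallest p. The 2 genes most like each member are named too. Rbpj, Pax7, Calcr, Col6a1, Col5a1, Col5a2, Des, Col1a1, Col3a1, and Dtx2 in its other settings, were named after their values were seen.

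Alternatives were DESeq2 1.42.0, limma-voom and limma on log2 FPKM (limma 3.58.1) with pseudocounts of 1 and 0.1, other scalings and filters, the replicate number as a block, 1 surrogate variable (sva 3.50.0), the mitochondrial share as a covariate, and each library left out. Summing counts over library sets was chosen after seeing the data. A set is a pair of libraries of a group in the same state at 80% or more of the genes with 2 levels at least 2 log2 units apart. Counts of the 30 library pairs within groups differed by more than sampling noise (chi-square per degree of freedom 12.9 to 159), so none was counted as a duplicate.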

Additional observations from a re-analysis of the deposited data

Results flagged for a closer look

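In 2 of the 18 groups of 6 libraries tested, 1 library stood far from the others of its group; chance flags about 1 in 20 groups. For Hes1, control replicate 2 had 20.7 CPM while the other 5 controls lay between 14.2 and 15.8 CPM. Without it, the log2 fold change of Hes1 was 0.08, knockout minus control. For Hey1, control replicate 6 had 4.92 CPM while the other 5 controls lay between 8.07 and 9.13 CPM. Without it, the log2 fold change of Hey1 was 0.13, against 0.23 with all libraries. Control replicate 6 also had the lowest satellite cell marker mean, 4.87 on the log2 CPM scale, in a list that includes Calcr with few reads. The part of this in its Hey1 level was not tested.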

How the results depend on the processing

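None of the 9 genes passed the threshold in any of the 24 alternatives, and for all but Hes1 the direction was kept in each. Hes1 turned positive in 12: 0.0063 with DESeq2 size factors, 0.013 with upper quartile scaling, 0.0040 in DESeq2, 0.054 in limma-voom, 0.0052 without a filter on low counts, 0.0027 and 0.0025 in limma on log2 FPKM with pseudocounts of 1 and 0.1, 0.028 over library sets, and among the fits that leave out 1 library, which ran from -0.035 to 0.085. Leaving out a library moved the log2 fold change of Notch1 between 0.09 and 0.23, of Notch2 between 0.04 and 0.12, of Notch3 between 0.19 and 0.37, of Dll1 between 0.21 and 0.42, of Dll4 between 0.0028 and 0.20, of Jag1 between -0.31 and -0.19, of Hey1 between 0.13 and 0.30 and of Heyl between 0.24 and 0.47. Genes past the threshold in the whole table numbered 387 in DESeq2, 389 in limma-voom, 236 with the replicate block, 231 with 1 surrogate variable, 0 over library sets, and 6 to 214 without a single library. For the satellite cell Notch targets the count was 2 in DESeq2, 2 in limma-voom, 1 with the replicate block, and 0 to 2 without a single library; for the other pathway genes it was 1 in limma-voom and 0 to 1 without a single library. Pparg missed the threshold without a filter on low counts (log2 fold change -1.12), over library sets (-1.13) and in 8 of the 12 fits that leave out 1 library, which ran from -1.32 to -1.002. The cause of these changes was not tested. Same-numbered knockout and control libraries correlated with r from -0.13 to 0.46 after group means were removed, and 1 of 6 knockout libraries correlated best with its own number. No pairing by number was seen, but so few libraries cannot exclude one. With counts in place of FPKM, which weights long genes, Notch1 made up 13.7% of the receptors in knockout and 13.6% in control libraries and Notch3 33.9% and 31.4%. In the same way, knockout first, Notch2 made up 52.4% and 55.1% of the receptors, Dll1 44.7% and 37.0% and Jag1 45.6% and 54.0% of the ligands, and Hes1 18.2% and 21.8% and Heyl 71.0% and 67.5% of the targets. Dll4 had the fewest reads, 81 to 163 per library.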
